A study of Mus musculus with 24 samples.

Results

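The genes described here encode the enzymes that make serine and pass its carbon through folate: Phgdh, Psat1 and Psph of serine synthesis, Shmt1 and Mthfd1 of cytosolic folate metabolism, and Shmt2, Mthfd2, Mthfd2l, Mthfd1l and Aldh1l2 of the mitochondrial arm. They were chosen by name as pathway members and not by a measured value, though with earlier results of these data known. They are 10 of 35968 annotated genes. All 10 passed the filter on low counts, which left 14577 genes to test. RNA was measured in C2C12 cells, a mouse myoblast line, kept undifferentiated and below confluence in DMEM with fetal bovine serum. Every culture had been transfected for 48 h, either with a non-targeting siRNA (siCont), with 1 siRNA against Keap1 (siKeap1), with 1 siRNA against Fem1b (siFem1b), or with both of the targeting siRNAs (siFem1b/Keap1). Each of the 4 groups held 3 libraries of poly(A)-selected RNA, and every library has 2 sequencing runs, which were added up. The comparisons ask how the RNA of these enzymes changes when either substrate receptor of a ubiquitin ligase is depleted, and whether the changes add when both are.

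In the serine pathway a glycolytic intermediate is oxidised by PHGDH, transaminated by PSAT1 and dephosphorylated by PSPH. Serine hydroxymethyltransferases then move a carbon from serine to tetrahydrofolate and release glycine, SHMT1 chiefly in the cytosol and SHMT2 in mitochondria. Mitochondrial one-carbon units are oxidised by MTHFD2 or MTHFD2L and leave as formate through MTHFD1L, or end as carbon dioxide through ALDH1L2. In the cytosol MTHFD1 carries the steps that match those of MTHFD2 and MTHFD1L, and feeds purine and thymidylate synthesis. ATF4, a transcription factor of the amino acid response, is known to drive many of these genes, and NRF2, the factor that KEAP1 marks for degradation, has been linked to them through ATF4 in cancer cells.

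Libraries held between 31.9 M and 43.0 M estimated counts assigned to annotated genes, and the common biological coefficient of variation was 0.0503. The labels state repeats but not separate cultures. A p-value here thus weighs a group difference against the spread of these libraries, which may be only technical. In 2 groups, siKeap1 and siFem1b/Keap1, replicates 1 and 2 differed no more than repeat runs of 1 library do (2.47 and 2.43 times the variance of counting, against 2.34 to 2.87), so they may not be independent. They stay separate below. With each such pair added up as 1 library, 5 of 10 members were called in siKeap1 against siCont in place of 6 (Shmt2 lost). In siFem1b against siKeap1, 9 were called in place of 10 (Psat1 lost). With the pairs kept separate, 42.2% and 63.9% of all tested genes were called in these comparisons. Counts of members called in the other 5 comparisons were as given below. In CPM (counts scaled by library size), Keap1 lay between 8.59 and 11.2 in libraries given its siRNA and between 56.7 and 63.4 in the others, and Fem1b lay between 11.6 and 14.2 against 94.1 to 106. Of 8 myoblast markers all were detected, with a summed level of 1790 to 1820 CPM in siCont, 1560 to 1680 with siKeap1, 2270 to 2380 with siFem1b and 1930 to 1990 with both. In siFem1b 8 of 8 were called higher, beside 30% of all tested genes. Markers of differentiated muscle, 14 genes such as Myog, summed to 55.6 to 73.1 CPM in siCont, 55.7 to 61 with siKeap1, 510 to 533 with siFem1b and 298 to 304 with both, so they moved together with the comparisons below, and their part in those results was not tested. Ttn, which encodes the giant sarcomere protein titin, held between 35.6 and 49.3 CPM of that sum in siCont and did not pass the test in siKeap1. There 7 of the 14 were lower and 1 higher (median log2 fold change -1.17), beside 23.8% and 18.4% of all tested genes. Myog, a transcription factor of muscle differentiation, stood at 2.34% of siCont in siKeap1. Mymx, with 3 counts over the siCont libraries, held 0 there. Epithelial markers, 7 genes, summed to 42.5 to 47.6 CPM in siCont, 102 to 108 with siKeap1, 82.2 to 90.4 with siFem1b and 146 to 164 with both. The part of these genes in the results was not tested either. Leukocyte, endothelial and adipocyte markers summed to at most 6.92, 2.14 and 0.581 CPM in any library, with Adgre1 at 0 throughout. In bulk RNA, fewer cells of a type and less RNA per cell cannot be told apart.

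Positions are given for GRCm38. Phgdh is on chromosome 3 (98313170 to 98339990, minus strand), Psat1 on chromosome 19 (15904678 to 15947337, minus strand) and Psph on chromosome 5 (129765558 to 129787449, minus strand). Mthfd2l is also on chromosome 5 (90931117 to 91021368, plus strand), Mthfd2 on chromosome 6 (83305691 to 83325908, minus strand), Shmt1 on chromosome 11 (60788104 to 60811718, minus strand) and Mthfd1 on chromosome 12 (76255298 to 76319803, plus strand). Chromosome 10 carries 3 of them, Mthfd1l (3973118 to 4167081, plus strand), Aldh1l2 (83487450 to 83534140, minus strand) and Shmt2 (127517123 to 127522444, minus strand). Without strand information reads in an overlap cannot be assigned to one of 2 genes, and this touches 2 members whose overlapping neighbour is more abundant. The last 1056 bases of Aldh1l2 overlap D10Wsu102e, and 184 bases of Shmt1 overlap Smcr8. Their changes in several of the comparisons are given with those members below.

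Deposited TPM, which corrects for transcript length, allows the genes to be ranked against each other. Phgdh was the most abundant in siCont at 398.1 TPM, followed by Shmt2 at 296.4 and Psat1 at 249.7. Mthfd2 at 99.63 and Mthfd1 at 98.12 TPM were not separated, since their libraries overlapped. Mthfd1l followed at 71.94 TPM, Psph at 67.59, Shmt1 at 34.78, Aldh1l2 at 29.36 and Mthfd2l at 19.85, and the libraries of each of these did not overlap those of the one before it. In siFem1b/Keap1 the order was Phgdh at 204.4, Psat1 at 125.8, Shmt2 at 106.6, Mthfd1 at 62.91, Psph at 42.4, Mthfd2 at 36.81, Mthfd1l at 29.39, Shmt1 at 14.98, Mthfd2l at 13.88 and Aldh1l2 at 7.028 TPM. Aldh1l2 thus moved from the ninth place to the last, and Mthfd1 came to stand above Mthfd2 in every library.

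**Figure D1:**
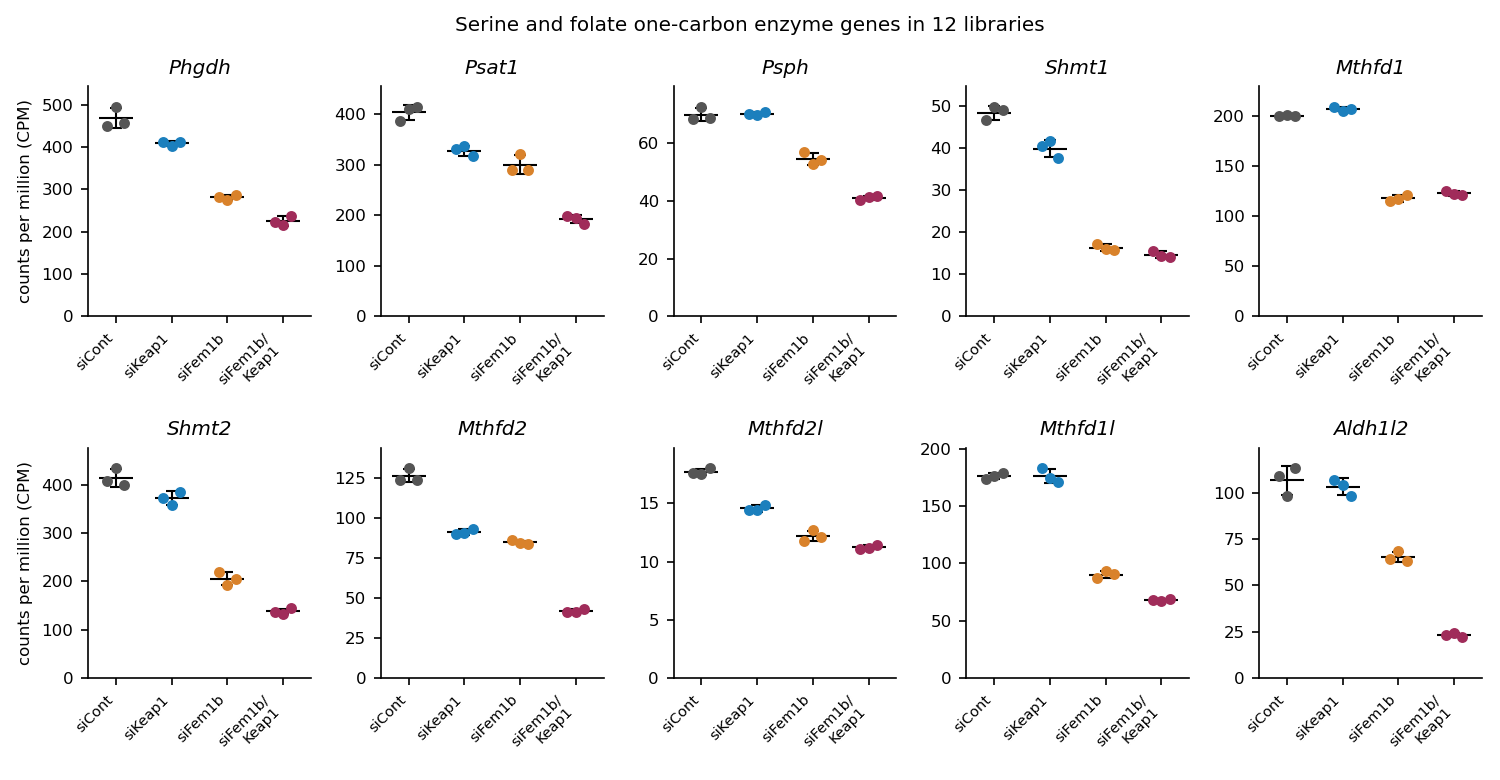
CPM (vertical axes, from 0) of each of the 10 genes in the 12 libraries, by siRNA group; points are libraries, horizontal lines the mean and bars 1 SD (n = 3). All 6 libraries given siFem1b lie below all 3 siCont libraries for every gene, and Aldh1l2 lies between 22.3 and 24 CPM in siFem1b/Keap1 against 97.9 to 113 in siCont. How many of all tested genes separate in this way is not given.

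Depletion of Fem1b lowered all 10 genes. Against siCont, 10 of 10 passed the test as lower and 0 as higher, where 62.1% of all tested genes passed it, 32.1% as lower. The members' median log2 fold change was -0.723, beside a median of -0.0088 over all tested genes. Even the least lowered member, Psph, was at or above only 19.7% of all genes.

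Shmt1 had the largest fall. Its libraries stood at 46.5, 49.7 and 48.9 CPM in siCont and at 17.2, 16.1 and 15.7 in siFem1b, with no overlap. It was 2.96-fold lower (log2 fold change -1.57, SE 0.058, adjusted p = 6.2e-14). Smcr8, the neighbour that overlaps its 3' end, stood at a log2 fold change of -0.011 in the same comparison (adjusted p = 0.85). Shmt2, the mitochondrial counterpart, fell from 409, 434 and 399 CPM to 219, 192 and 205, also without overlap. The change was 2.02-fold (log2 fold change -1.01, SE 0.049, adjusted p = 2.7e-12). Mthfd1l, the formate-releasing synthetase, fell from between 174 and 179 CPM to between 87.2 and 93.2, or 1.95-fold by edgeR's quasi-likelihood test (adjusted p = 1.7e-13). Mthfd1, the cytosolic relative that also carries the dehydrogenase and cyclohydrolase steps, fell from 200, 201 and 200 CPM to 115, 117 and 121, or 1.71-fold (adjusted p = 1.1e-12). Genes of both arms of folate metabolism were thus lower.

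Of the serine synthesis genes, Phgdh, the first enzyme of the pathway, fell most. It stood at 451, 495 and 458 CPM in siCont and 281, 276 and 287 in siFem1b, which is 60.1% of siCont (log2 fold change -0.73, SE 0.043, adjusted p = 3.8e-11). Psat1, the transaminase, fell to 74.3% of siCont and Psph, the phosphatase, to 78.2%. These were the smallest falls among the 10, and the groups did not overlap for either. The share of all genes without overlap is not given, here or where overlap is named elsewhere. The remaining mitochondrial genes lay between, with Aldh1l2 at 61.1% of siCont, Mthfd2 at 67.2% and Mthfd2l at 68.7%. D10Wsu102e, which overlaps Aldh1l2, had a log2 fold change of -0.33 in this comparison (adjusted p = 8.1e-07 by edgeR's test).

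The siFem1b guide pairs through its seed (guide bases 2 to 8) with the letters CAGAATT in a transcript, and such matches are shown because siRNAs can lower transcripts through them. Of the main transcripts of the members, 2 held that match in the 3' UTR, and they were those of the 2 genes with the largest falls. The capitals below mark the match, in transcript bases 2056 to 2062 of Shmt1-201 and 1803 to 1809 of Shmt2-201 (GENCODE M21).
Shmt1: attaaagattcCAGAATTgtcct
Shmt2: aaactcccttcCAGAATTtgtag
A 3' UTR match was present in 11.5% of 11044 transcripts with at least 1 TPM, and a match anywhere in 23.1%. Phgdh, Shmt1 and Mthfd1l held it in their coding sequence. Psat1, Psph, Mthfd1, Mthfd2, Mthfd2l and Aldh1l2 held no match and were lower as well, by 0.35 to 0.77 on the log2 scale (Psph -0.35, Mthfd1 -0.77). The seed match of the control siRNA, TTTTCTG, was in the 3' UTR of Psat1, Shmt1 and Aldh1l2 (22.2% of transcripts), and that of siKeap1, GACACGG, only in the coding sequence of Psph (11.3% of transcripts hold it anywhere). The part of seed pairing in the changes was not tested, and the series holds 1 siRNA per target.

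Depletion of Keap1 alone gave a change closer to 0 than that of Fem1b for each of the 10 genes. Of the 10 members 6 passed the test as lower and 0 as higher, where 42.2% of all tested genes passed it, 23.8% as lower, and the members' median was -0.174 (all genes -0.024). Mthfd2, the mitochondrial dehydrogenase, had the largest fall: it stood at 124, 131 and 124 CPM in siCont and at 89.8, 90.5 and 93.3 in siKeap1 (log2 fold change -0.47, SE 0.038, adjusted p = 1e-08). Psat1 fell from 387, 409 and 414 CPM to 330, 336 and 317 (log2 fold change -0.30, adjusted p = 2.7e-05). Phgdh, Shmt1, Shmt2 and Mthfd2l changed by -0.20, -0.28, -0.15 and -0.28 on the log2 scale. None of these 6 called genes had overlapping groups, and the share of all genes without overlap is not given here.

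Some of these small changes rest on the setting or the library. The Shmt2 call (adjusted p = 0.016) was lost without siCont replicate 2 (adjusted p = 0.066), without siKeap1 replicate 2 (0.079), without siFem1b replicate 3 (0.06) and without siFem1b/Keap1 replicate 1 (0.06), and in the first run alone (0.15). Smcr8, which overlaps Shmt1, also stood lower in siKeap1, with a log2 fold change of -0.28 (adjusted p = 4.5e-05). The other 4 members did not pass the test. Psph changed by 0.0067 (95% interval -0.073 to 0.086), Mthfd1l by -0.0010 (-0.074 to 0.072) and Aldh1l2 by -0.047 (-0.15 to 0.055). Mthfd1 changed by 0.046 (-0.021 to 0.11, adjusted p = 0.31), although its siKeap1 libraries, at 209, 205 and 207 CPM, all lay above those of siCont.

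**Figure D2:**
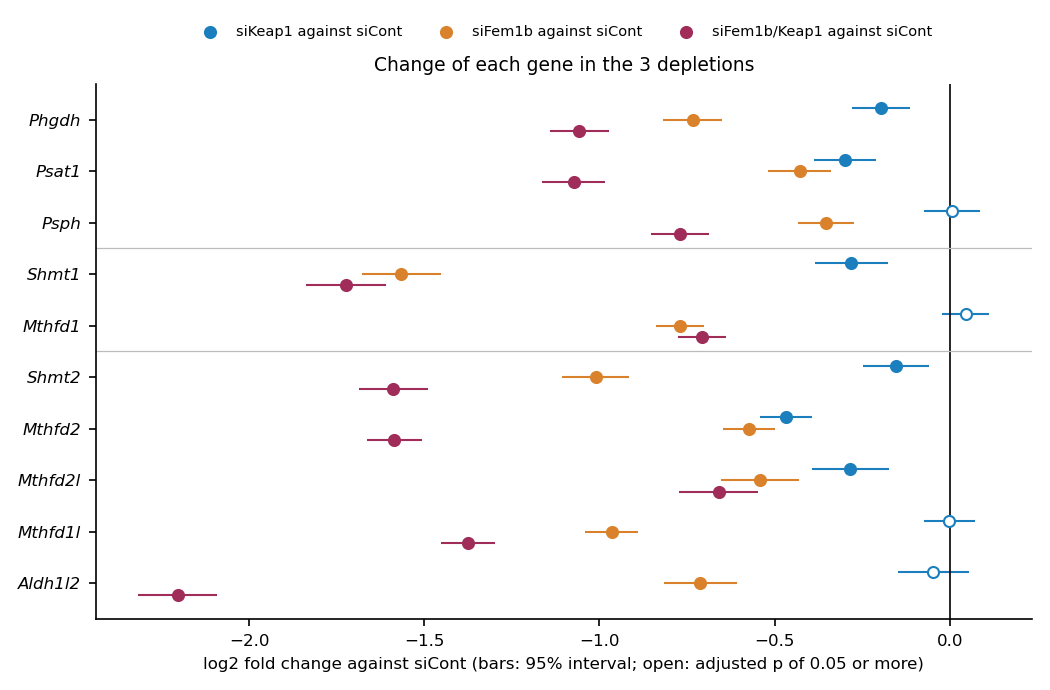
Log2 fold change against siCont (horizontal axis) of each gene in the 3 depletions. Bars are 95% intervals from a normal quantile, narrower than edgeR's test allows, and open points have an adjusted p of 0.05 or more. Grey lines part serine synthesis, cytosolic folate and mitochondrial folate; in siFem1b/Keap1 the values run from -0.66 for Mthfd2l to -2.20 for Aldh1l2.

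Depletion of both receptors gave the lowest mean level of 9 of the 10 genes, with Mthfd1 the exception. Against siCont 10 of 10 were called lower, where 67.5% of all genes were called, 33.7% as lower. Their median log2 fold change was -1.22 (all genes 0.005). Summed over the 10 genes, libraries lay between 1990 and 2080 CPM in siCont, 1800 and 1830 with siKeap1, 1220 and 1230 with siFem1b, and 864 and 887 with both. These comparisons share the siCont libraries and are set side by side only.

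Aldh1l2, the mitochondrial formyltetrahydrofolate dehydrogenase, changed most. Its libraries held 109, 97.9 and 113 CPM in siCont, 107, 104 and 98 with siKeap1, 64.2, 68.2 and 63.1 with siFem1b and 23.1, 24 and 22.3 with both. The siKeap1 libraries overlapped those of siCont, while the siFem1b libraries lay below both and the siFem1b/Keap1 libraries below all others. The fall against siCont was 4.61-fold (log2 fold change -2.20, SE 0.058, adjusted p = 4.8e-16), and only 0.11% of tested genes were lower in that comparison. D10Wsu102e, which overlaps the end of Aldh1l2, changed by -0.43 on the log2 scale there.

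Mthfd2 fell to 41.5, 41.4 and 43.1 CPM in siFem1b/Keap1, 33.3% of siCont, from 86, 84.4 and 83.8 in siFem1b. Adding siKeap1 to siFem1b therefore lowered it 2.02-fold (adjusted p = 5.6e-13). Shmt2 fell to 137, 133 and 144 CPM (33.3% of siCont) and Mthfd1l to 67.8, 67.5 and 68.6 (38.6%). In the mitochondrial arm Mthfd2l was the exception, with 11.8, 12.7 and 12.1 CPM in siFem1b and 11.1, 11.2 and 11.4 in siFem1b/Keap1. Those libraries did not overlap, but the difference did not pass edgeR's test (log2 fold change -0.12, unadjusted p = 0.065, adjusted p = 0.13). Its 95% interval, -0.23 to -0.00013, uses a normal quantile and is narrower than that test allows. The same holds for every 95% interval given here.

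The serine synthesis genes all fell further when siKeap1 was added to siFem1b. Psat1 stood at 289, 321 and 290 CPM in siFem1b and 198, 194 and 183 in siFem1b/Keap1 (log2 fold change -0.64, SE 0.046, adjusted p = 2.1e-09). Psph went from 56.9, 52.8 and 54.1 CPM to 40.2, 41.2 and 41.5 (log2 fold change -0.42, adjusted p = 2.3e-07), and Phgdh from 281, 276 and 287 to 222, 215 and 238 (log2 fold change -0.32, adjusted p = 6.6e-06). None of these groups overlapped, again without a share over all genes to set beside it.

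The cytosolic genes did not fall further by the test. Mthfd1 stood at 115, 117 and 121 CPM in siFem1b and 125, 122 and 121 in siFem1b/Keap1, which overlap (log2 fold change 0.062, 95% interval -0.0065 to 0.13, adjusted p = 0.17). Shmt1 stood at 17.2, 16.1 and 15.7 CPM against 15.6, 14.4 and 14, without overlap (log2 fold change -0.16, adjusted p = 0.05). Smcr8, which overlaps it, changed by -0.11 in the same comparison (adjusted p = 0.059 by edgeR's test). The value for Shmt1 lies at the threshold. It passed with DESeq2 size factors, in the first run alone, and without siCont replicate 2, siKeap1 replicate 3, siFem1b replicate 2 or 3, or siFem1b/Keap1 replicate 1, and over all alternatives the adjusted p ran from 0.019 to 0.83. In this comparison 7 of 10 members were called lower, where 43.1% of all genes were called, 21.8% as lower. In siFem1b/Keap1 against siKeap1, 10 of 10 were lower (63.6% of all genes called, 31.6% as lower), with log2 fold changes from -0.38 for Mthfd2l to -2.16 for Aldh1l2.

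Between the single depletions, siFem1b against siKeap1, 10 of 10 genes were lower with siFem1b (63.9% of all genes called, 31.8% as lower). The difference was largest for Shmt1 (log2 fold change -1.28) and Mthfd1l (-0.96). It was small for Psat1 (-0.13, adjusted p = 0.019, groups overlapping) and Mthfd2 (-0.11, adjusted p = 0.021), and those calls were lost under 8 and 7 of the alternatives. Without siKeap1 replicate 1, siKeap1 replicate 2 or siFem1b replicate 1 the adjusted p for Psat1 was 0.054, 0.078 or 0.085, and without siKeap1 replicate 3 that for Mthfd2 was 0.082.

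The interaction of the siRNAs, the amount by which the double depletion departed from the sum of the single log2 changes, was called for 6 of 10 genes, all toward a lower level. Over all genes 11.4% were called, 5.32% toward lower. For Aldh1l2 the single changes sum to -0.76 and the double depletion gave -2.20, a departure of -1.45 (SE 0.078, adjusted p = 4.4e-10). By size and sign, 1.04% of tested genes had a lower value. Mthfd2 departed by -0.55 (SE 0.055, adjusted p = 1.8e-06), from a sum of -1.04 to -1.59. Shmt2 departed by -0.43, Psph by -0.42, Mthfd1l by -0.41 and Psat1 by -0.35. For Aldh1l2, Psph and Mthfd1l siKeap1 had no called change on its own and a called fall in cells that also had siFem1b.

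The other 4 genes did not depart from the sum by the test. Both cytosolic genes were among them, Shmt1 with 0.12 (95% interval -0.038 to 0.28, adjusted p = 0.39) and Mthfd1 with 0.016 (-0.080 to 0.11, adjusted p = 0.88). Phgdh had -0.13 (adjusted p = 0.2), which passed the test without siFem1b/Keap1 replicate 3 (-0.21, adjusted p = 0.034). Mthfd2l had 0.17 (adjusted p = 0.22). The departure for D10Wsu102e beside Aldh1l2 was 0.091 (adjusted p = 0.35).

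**Figure D3:**
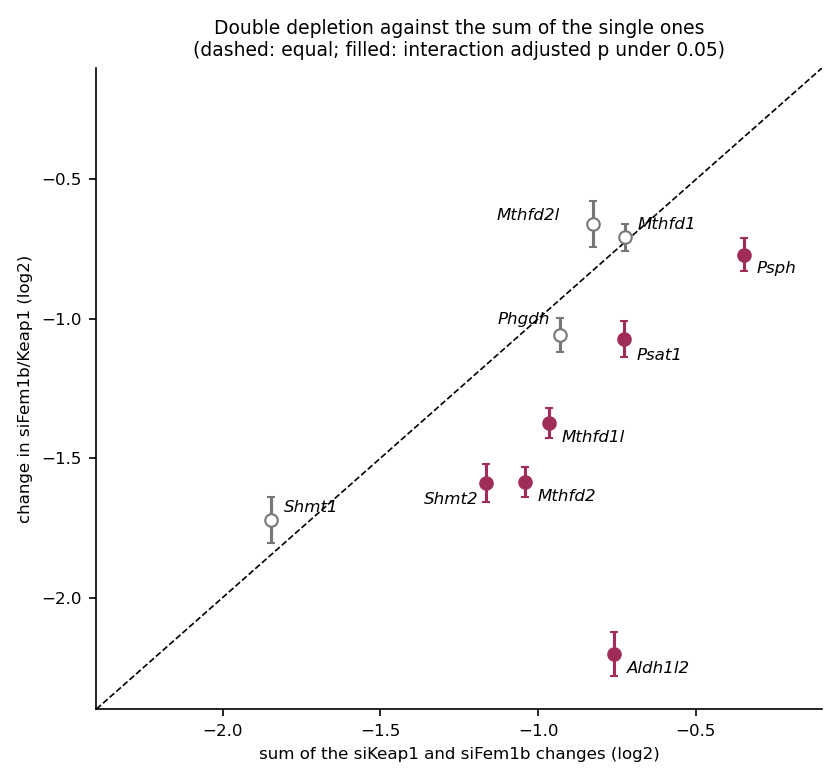
Log2 change in siFem1b/Keap1 (vertical axis) against the sum of the siKeap1 and siFem1b changes (horizontal axis), both against siCont; bars are the SE of the departure, the dashed line marks equality, and filled points have an interaction adjusted p under 0.05. Aldh1l2 lies 1.45 below the line (departure -1.45), and Shmt1, Mthfd1 and Mthfd2l lie on or above it with open points.

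Ratios of deposited TPM between partner genes are given as a description, with no test. Mthfd2 to Mthfd1 was 1.02 ± 0.041 in siCont (SD, n = 3), 0.723 ± 0.023 with siKeap1, 1.21 ± 0.060 with siFem1b and 0.585 ± 0.030 with both. The ratio was thus lower in both groups given siKeap1 and higher with siFem1b alone, with no overlap between any of these groups. Mthfd1l to Mthfd1 was 0.733 ± 0.016, 0.722 ± 0.020, 0.647 ± 0.021 and 0.467 ± 0.0037 in the same order, so it was lowest with both siRNAs. Mthfd2 to Mthfd2l, the 2 mitochondrial dehydrogenases, was 5.02 ± 0.13 in siCont and 2.65 ± 0.037 in siFem1b/Keap1. Shmt2 to Shmt1 was 8.57 ± 0.70, 8.76 ± 1.1, 10.3 ± 1.6 and 7.13 ± 0.31, with overlap between the first 3 groups. Aldh1l2 to Mthfd1l, the genes of the 2 mitochondrial exits of formyl-folate, was 0.407 ± 0.038 in siCont, 0.51 ± 0.036 in siFem1b and 0.239 ± 0.0067 in siFem1b/Keap1.

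For most members 1 transcript held most of the TPM of its gene. Phgdh-201 made up 99.7% of the TPM of its gene in siCont, Psph-201 97.5%, Mthfd2-201 96.7%, Psat1-201 91.6% and Aldh1l2-201 74.8%. The TPM of Aldh1l2-201 went from 21.9 in siCont to 4.98 in siFem1b/Keap1, and that of Aldh1l2-206, the next coding transcript, from 4.98 to 1.14. By TPM share Shmt1 and Mthfd2l were mixed, though less so by estimated counts. Shmt1-201 held 68.2% in siCont, 50.4% in siFem1b and 46.1% in siFem1b/Keap1, while the retained-intron transcript Shmt1-205 held 13.1%, 24.1% and 28.9%. Mthfd2l-201 held 51.7% in siCont, and 2 short transcripts, Mthfd2l-202 and Mthfd2l-203, held 23.4% and 22.6%. Of 1964 estimated counts of Mthfd2l there, these transcripts held 1537, 125 and 151. In siFem1b the fall was smaller in TPM than in CPM for all 10 genes, with Phgdh at 65.6% of siCont in TPM and 60.1% in CPM, Shmt1 at 45.8% and 33.8%, and Mthfd2l at 81.4% and 68.7%. Most genes of the other lists moved likewise, such as Trp53 (92.87% and 84.69%), while others such as Slc25a32 did not (80.72% and 85.86%). The share over all genes is not given, so this is not read as a trait of the members. Transcript shares rest on the estimate by which reads common to several transcripts were divided.

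Among regulators, Atf4 RNA stood at 366, 428 and 371 CPM in siCont, 307, 302 and 306 with siKeap1, 300, 311 and 301 with siFem1b and 209, 203 and 213 with both. It fell in all 3 depletions, by 1.86-fold in the double one (adjusted p = 7.1e-12), and its departure from the sum was -0.20 (adjusted p = 0.074). Of the 4 regulators 0 had a called departure in edgeR's test, where 11.4% of all genes were called. With 4 genes, 0 is not set apart from that share. At an unadjusted p under 0.05 there were 2, Atf4 and Myc, while DESeq2's Wald test called 2 and limma-voom 0. Without siCont replicate 2, siFem1b replicate 3 or siFem1b/Keap1 replicate 1, 1 was called, and without siFem1b replicate 2 or siFem1b/Keap1 replicate 3, 2 were. Nfe2l2, which encodes NRF2, fell as well, from between 135 and 137 CPM to between 51.1 and 51.6 in siFem1b/Keap1. Myc, a growth-promoting transcription factor that is also known to act on this pathway, rose slightly in siKeap1 (1.14-fold) and was 2.00-fold lower in siFem1b and in siFem1b/Keap1. On the log2 scale Trp53, the p53 gene, fell by 0.24 with siFem1b and by 0.19 with both siRNAs. RNA levels do not report the protein of any of these factors.

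Most genes of a list for the amino acid response driven by ATF4, which counts Atf4 itself again, fell when both receptors were depleted. Of 18 tested, 14 were lower and 3 higher against siCont (median -0.935; 67.5% of all genes called, 33.7% as lower), and 11 departed from the sum toward lower, 0 toward higher, against 11.4% of all genes in either direction. Slc7a5, the light chain of the large neutral amino acid transporter, fell by 1.83 on the log2 scale with a departure of -0.98. Asns, asparagine synthetase, fell by 1.15, and Slc3a2, the heavy chain that pairs with SLC7A5 and SLC7A11, by 1.02. Chac1, which degrades glutathione, rose in siFem1b (log2 fold change 0.57), fell in siFem1b/Keap1 (-0.97) and departed by -1.41. In siFem1b alone the list was mixed, with 10 lower and 5 higher (62.1% of all genes called).

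NRF2 targets followed another course. All 12 rose in siKeap1 (median 1.19), 11 of 12 fell in siFem1b, and in siFem1b/Keap1 6 were higher and 4 lower than in siCont. Of all genes 18.4% were higher in siKeap1 and 32.1% lower in siFem1b, and in siFem1b/Keap1 33.8% were higher and 33.7% lower. Nqo1, a quinone reductase, was higher by 1.04 there, and Tkt and G6pdx of the pentose phosphate pathway by 0.83 and 0.86. Of this list 8 departed from the sum toward lower and 1 toward higher (5.32% and 6.11% of all genes). Slc7a11, the cystine transporter, is counted in both lists: it rose by 2.99 in siKeap1, stood at -0.85 in siFem1b/Keap1, and departed from the sum by -2.93.

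Genes that take up or use folate moved in both directions. Of 18 tested, 10 fell and 4 rose in siFem1b, and 9 fell and 4 rose in siFem1b/Keap1. Those shares called, 77.8% and 72.2%, stand beside 62.1% and 67.5% of all genes, and the latter is near its background. For the departure from the sum 0 were called by edgeR, where 11.4% of all genes were called. DESeq2's Wald test and limma-voom called 0 as well. In edgeR's test 3 had an unadjusted p under 0.05, and 1 was called without siCont replicate 3 or siKeap1 replicate 3. Slc19a1, the reduced folate carrier, fell by 1.18 in siFem1b, and Sfxn1, which brings serine into mitochondria, by 0.65. Tyms, which makes thymidylate, fell by 0.90 in siFem1b/Keap1. Aldh1l1, the cytosolic counterpart of Aldh1l2, moved the opposite way: it held 0.365, 0.35 and 0.244 CPM in siCont, 0.936, 0.961 and 0.687 with siKeap1, 2.04, 2.37 and 2.37 with siFem1b and 7.23, 7.79 and 7.79 with both. No groups overlapped. From 35 counts over the 3 siCont libraries it rose to 835 over those of siFem1b/Keap1, a log2 fold change of 4.57 (adjusted p = 4.8e-14, SE 0.17).

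Purine synthesis, which takes formyl groups from cytosolic folate, was lower with Fem1b depletion: 12 of 12 genes were lower in siFem1b (median -0.475; 32.1% of all genes lower). In siFem1b/Keap1 10 of 12 were lower and 1, Adssl1, was higher (median -0.436; 33.7% of all genes lower). Ppat, Pfas and Gart fell by 0.93, 0.81 and 0.58 in the latter. For the departure from the sum 2 of the 12 lay just past the threshold (16.7%, near the 11.4% of all genes). They were Atic (-0.17) and Adssl1 (0.34), both with an adjusted p of 0.045 by edgeR's test. Without any 1 of the 12 libraries other than siFem1b/Keap1 replicate 1, 0 or 1 were called. Of 9 methionine and transsulfuration genes tested, 5 were lower and 2 higher in siFem1b/Keap1 (77.8% called, beside 67.5% of all genes), with falls of 0.59 for Mtap, 1.03 for Ahcy and 0.52 for Mat2a. In the glycine cleavage system of 4 genes, Gldc rose by 1.40 and Dld and Gcsh fell by 0.33 and 0.21. Genes of S phase, the period of DNA synthesis, fell in siFem1b/Keap1 in 18 of 18 cases (median -0.737; 33.7% of all genes lower), among them Mcm5 by 0.99 and Cdc6 by 1.04, and their part in the results above was not tested. By edgeR's test 0 of 18 departed from the sum, beside 11.4% of all genes, with 3 at an unadjusted p under 0.05. DESeq2's Wald test called 3, all toward lower, and 2 were called without siFem1b replicate 2 or without siFem1b/Keap1 replicate 1. The share of all genes called in those fits is not given, so these counts are not read as a trait of the list.

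**Figure D4:**
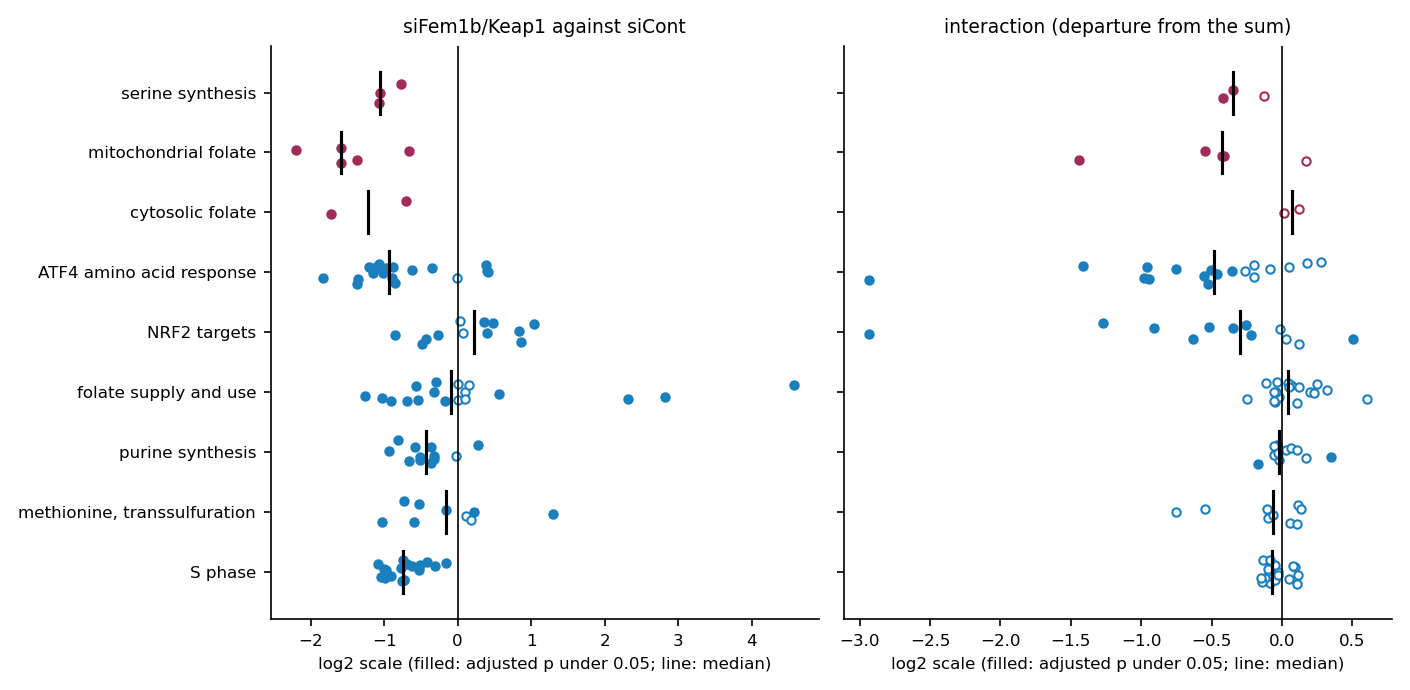
Log2 fold change in siFem1b/Keap1 against siCont (left) and departure from the sum of the single changes (right) for each tested gene (points) of 9 lists; filled points have an adjusted p under 0.05, vertical lines are medians, and the members' 3 lists are in red. Mitochondrial folate has a median departure of -0.425 and S phase one of -0.068.

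Across the 12 libraries the members' log2 CPM are compared as a description, since the 12 points are 4 groups of 3 that share their siRNA. Pearson's r was highest for Phgdh with Shmt2 (0.993) and Psat1 with Mthfd2 (0.987) and lowest for Mthfd1 with Mthfd2 (0.679). Of 9937 other genes at 5 CPM or more, Dbf4, Wars, Rcc2 (each 0.996), Rpap3, Nup62 and Nup133 (each 0.995) had the profile closest to the members' mean. Wars, a tryptophanyl-tRNA synthetase, stood at 126.1 CPM in siCont and 78.95 in siFem1b/Keap1, and Dbf4, an activator of the replication kinase CDC7, at 95.68 and 43.

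Promoters, taken as 250 bases before to 50 after the start in RefSeq (GRCm38.p6), were listed for 9 of the 10 genes, with 2 windows for Psat1. Letters of an NRF2 site, TGACNNNGC on either strand, were found in those of Phgdh and Psph, and in 12.4% of all 32851 promoters. Those of a joint ATF4 and C/EBP site, TGATGNAA (3.97% of all), and of the E-box CACGTG (7.15%) were in none of the windows of these 9 genes. The Phgdh match is printed because the start in this table is 21 bases from that of the main transcript. It lies on the minus strand of the gene at positions -53 to -45 and is in capitals in this stretch of chr3:98339992-98340052, given along the gene.
Phgdh: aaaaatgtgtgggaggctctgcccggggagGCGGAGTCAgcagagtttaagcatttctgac
A match describes letters only and shows no binding.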

How the data were processed

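The authors deposited, for each of 24 runs, a table of 118489 transcripts with an estimated count, a TPM value and an effective length. Per the submitters' processing notes these came from kallisto 0.44.0 on mm10; trimming and strandedness are not given in the sources used here. The deposited estimated counts were summed per gene (GENCODE M21, GRCm38; 116728 transcripts, 98.51%, matched, the others holding 0.606% to 0.64% of a run's counts) and over both runs, then rounded. Deposited TPM were summed per gene and averaged over runs. They were used to rank genes, form ratios of partner genes, describe transcripts and set changes beside those in CPM. TPM of transcripts also chose the transcript searched for seeds. Those of the second run weighted the effective lengths for the alternative with an effective length offset. The main fit did not use TPM.

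Sample groups follow the labels. After filterByExpr and TMM scaling (factors 0.952 to 1.04), edgeR 4.0.16 in R 4.3.3 fitted the 4 group means to the 12 libraries, and each contrast had a 2-sided robust quasi-likelihood test. Benjamini-Hochberg adjustment ran over all 14577 genes of a contrast, with a threshold of 0.05. The filter keeps a gene expressed in a single group. The procedure was checked on simulated data.

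Replicates as labelled were kept as 3 libraries. By chi-square per degree of freedom, replicates 1 and 2 differed by 2.47 in siKeap1 and 2.43 in siFem1b/Keap1, inside the 2.34 to 2.87 of 2 runs of a library, and by 1.56 and 1.6 within the first run. Other pairs differed by 5.62 or more. Of the second runs, 11 of 12 were nearest to their own first run, and that of siKeap1 replicate 2 to the first run of siKeap1 replicate 1.

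The members, gene lists and tests were chosen with earlier results of these data known. Named genes are the 10 members, 4 regulators, the 6 genes of most similar profile and up to 3 of the smallest p per list and comparison; a gene so named may be given in the other comparisons too. D10Wsu102e and Smcr8 were added after their values were seen. Alternatives were DESeq2 size factors, library totals, the DESeq2 1.42.0 Wald test, limma-voom (limma 3.58.1), no filter, at least 5 CPM in 3 libraries, an effective length offset, either run alone, a replicate block, only the groups compared, a threshold of 0.01 and each library left out; after the data were seen, the closest pairs of replicates were also added up.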

Additional observations from a re-analysis of the deposited data

Results flagged for a closer look

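The log2 change with siKeap1 differed between cells with and without siFem1b for 6 of the 10 genes, by the interaction test of edgeR. Of all tested genes 11.4% were called in that test, 5.32% toward lower. The members' differences were -1.445 for Aldh1l2, -0.5456 for Mthfd2, -0.4251 for Shmt2, -0.4226 for Psph, -0.4091 for Mthfd1l and -0.3456 for Psat1. Each had the lower value in cells given siFem1b. For the Keap1 gene itself the difference was -0.028 (adjusted p = 0.9).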

How the results depend on the processing

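The numbers of members called in the 7 comparisons stayed within 1.5 times the reported ones, and no called value turned its direction, under any alternative tried. Over the single genes, 1707 values kept their side of the threshold, 25 lost a call and 8 gained one. Lost calls beyond those named with the results were of Shmt1 in siKeap1 against siCont with an effective length offset (adjusted p = 0.15), of Shmt2 there with replicates added up (0.07) and at a threshold of 0.01, of Mthfd2l there in the first run alone (0.098) and of Mthfd2l in siFem1b against siKeap1 with the offset (0.48). Scaling by library totals alone moved the median of all genes in siFem1b/Keap1 against siCont to 0.13 on the log2 scale, and there all 10 members were still called lower. With the replicate block, 6, 10, 10, 10, 7, 10 and 6 of the 10 members were called in the order siKeap1, siFem1b and siFem1b/Keap1 against siCont, siFem1b/Keap1 against siKeap1 and against siFem1b, siFem1b against siKeap1, and interaction, as without it. The numbers did not pair the libraries: deviations of same-numbered libraries correlated with r from -0.078 to 0.117 (18 pairs), and 2 of 12 libraries correlated best with their own number. The 3 libraries per group and 1 siRNA per target limit all comparisons.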
